A study of Mus musculus with 24 samples.

Results

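The 36 genes described here fold newly made proteins in the endoplasmic reticulum (ER), check them, or deliver misfolded ones for degradation, and 3 of them sense ER load or act on that signal. They were taken by gene name from an expression table of 36806 genes of the mouse pancreas. All 36 were found, and all 36 were among the 12871 genes that reached 1 FPKM in 3 or more of the 24 libraries; none was listed at 0 in any library. By role they comprise 9 chaperones and their cofactors, 2 lectin chaperones, 8 enzymes of disulfide bond formation, 2 prolyl isomerases, 12 genes of ER-associated degradation and 3 sensors or regulators.

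Acinar cells, which make up most of the pancreas, synthesise and secrete digestive enzymes at a very high rate, and therefore keep an extensive ER. Chaperones such as BiP bind unfolded chains, protein disulfide isomerases form and rearrange their disulfide bonds, and calnexin and calreticulin hold glycoproteins until they are folded. Proteins that fail are recognised by mannosidase-like and lectin factors, moved back through the membrane by the SEL1L and HRD1 complex with the derlins, and pulled out by the ATPase VCP for destruction by the proteasome, while the unfolded protein response, run by IRE1 with XBP1, by ATF6 and by PERK, adjusts the levels of all of these.

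Polyadenylated RNA of whole pancreas was sequenced from C57BL mice with 2 intact copies of the nuclear receptor gene Nr5a2 (Nr5a2 +/+, WT) or with 1 (Nr5a2 +/-, HET). Mice of the saline groups served as controls, and the others received caerulein, a peptide that acts on cholecystokinin receptors and in excess causes mild acute pancreatitis, as 7 hourly intraperitoneal injections of 50 ug/kg. Pancreas was taken 8, 24 or 48 h after the first injection. Each of the 8 groups (WT saline, WT 8 h, WT 24 h, WT 48 h, HET saline, HET 8 h, HET 24 h and HET 48 h) held 3 animals, 1 library per animal. The labels name no tissue-specific driver for the HET allele, and whole pancreas was used, so a difference between genotypes is not specific to acinar cells.

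Levels are given in FPKM as the authors deposited them, a unit corrected for transcript length that can be compared between genes. Differences are of group means of log2(FPKM + 1), with their standard error (SE), a scale that understates the change of genes at a few FPKM. The SE rests on a spread estimated for each gene over all 8 groups, so it does not measure the spread of the groups compared. A gene was called where limma gave an adjusted p under 0.05 over all genes of the comparison. FPKM summed to between 217205 and 1400108 per library, and the number of fragments behind a value is not known. Nr5a2 itself was at 9.26 to 12.6 FPKM in WT saline and 8.01 to 9.09 in HET saline. The saline and 24 h libraries were made under an earlier kit guide (10 PCR cycles) and the 8 h and 48 h libraries under a later version (8 cycles), so for 8 h or 48 h against saline, and likewise against 24 h, time and guide cannot be told apart. WT saline replicate 3 appears in neither list of libraries. Among the 27 acinar secretory markers, 13 were listed at 0 in all WT saline libraries, including Cpa1, Cela2a and Pnlip, so acinar content was followed through the 14 that had values in every group. Their summed level was 361881 to 488692 FPKM in WT saline and 297800 to 577130 in HET saline, and their share of all FPKM was 38.4 to 48.5% and 39.9 to 41.2%.

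At rest the members spanned a wide range of levels. Pdia2, the disulfide isomerase that is enriched in the pancreas, was the most abundant at 3833 ± 910.3 FPKM (SD, n = 3) in WT saline, followed by P4hb, the founding member of the disulfide isomerase family, at 1527 ± 258 FPKM. Sel1l, the adaptor of the membrane ubiquitin ligase of degradation, Hspa5, which encodes BiP, Fkbp11, a prolyl isomerase of secretory tissues, and Xbp1, the transcription factor made active by IRE1, measured 385 ± 30.9, 376 ± 172, 319 ± 54.3 and 318 ± 24.8 FPKM. Neighbours among Sel1l, Hspa5, Fkbp11 and Xbp1 overlapped in their libraries, while every Sel1l value (363 to 420 FPKM) was above every Xbp1 value (291 to 340 FPKM). At the low end stood Ern1, which encodes IRE1, at 7.10 ± 0.84 FPKM, the oxidase Ero1l at 4.30 ± 0.71 FPKM and Pdia5 at 2.38 ± 0.13 FPKM. Ero1lb, the pancreatic counterpart of Ero1l, was at 178 ± 15.0 FPKM. WT saline replicate 1 was more than 1.5-fold above both other libraries of its group for 9 members, Hspa5, Hsp90b1, Hyou1, Sdf2l1, Manf, Creld2, Calr, Pdia3 and Pdia4, and HET saline replicate 2 was as far below both others for 10. The heat map shows all 36 members in all libraries relative to WT saline.

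**Figure D1:**
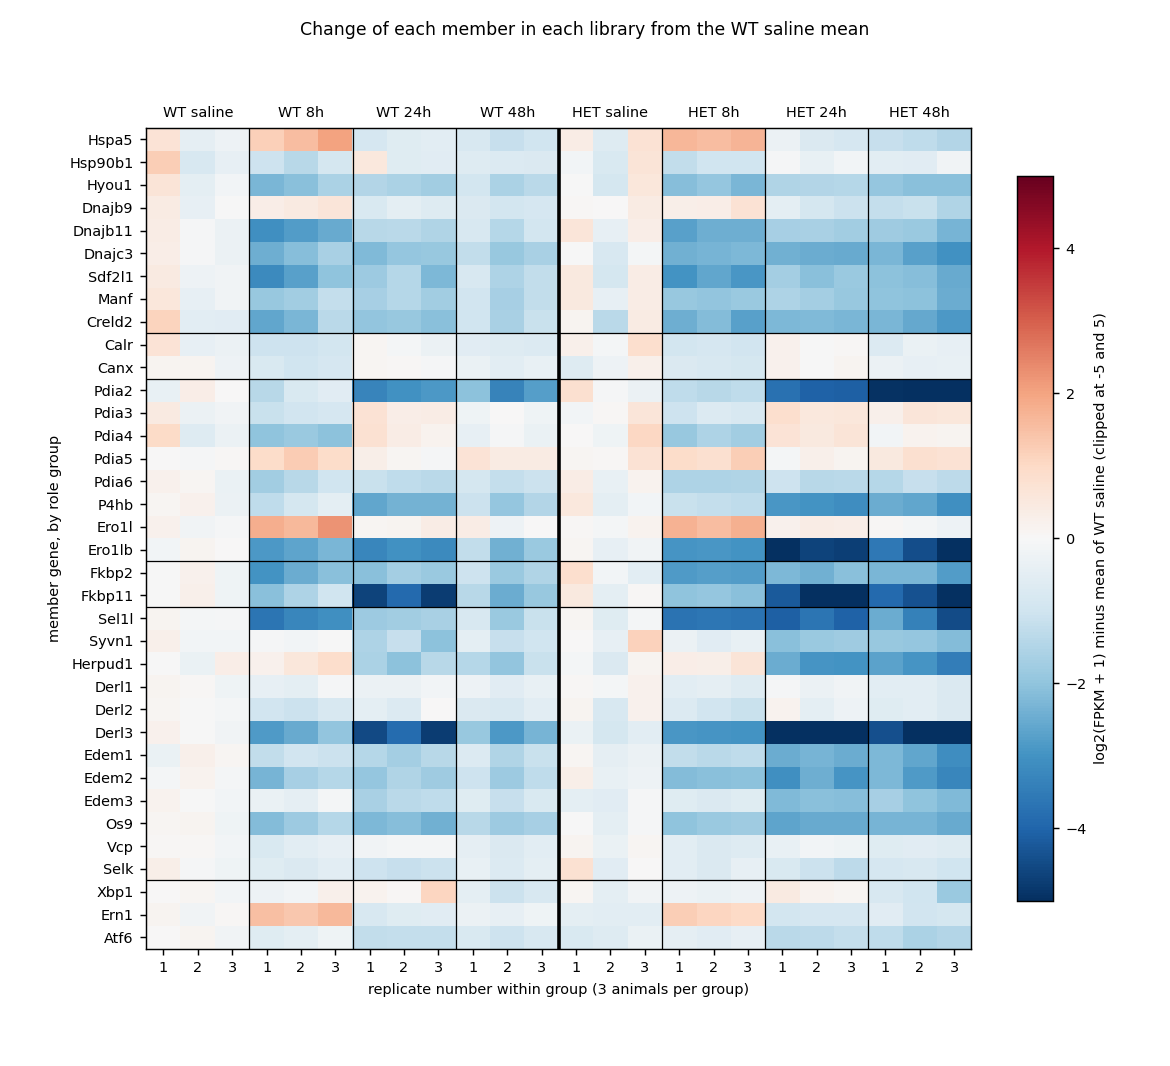
Each row is a member and each column a library (3 animals per group, columns numbered by replicate); colour gives log2(FPKM + 1) minus the WT saline mean, clipped at 5 in either direction. Hspa5, Ern1 and Ero1l are red in all 6 libraries at 8 h, and Fkbp11 and Derl3 are deep blue in the 24 h libraries of both genotypes.

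Because many of these genes are textbook targets of ATF6 and XBP1, their promoters were searched for the elements known to bind those factors, and the stretches are shown since members that hold the same element did not change alike below. The windows run from 250 bases before to 50 bases after the RefSeq start site (build GRCm38.p6), and 32 of the 36 members matched; Hyou1, Manf, Derl1 and Atf6 had no entry. The ER stress response element, searched on both strands as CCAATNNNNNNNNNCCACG, was present in 10 of these 32 genes (31.25%) against 0.137% of all 27025 genes. These were Calr, Canx, Creld2, Derl3, Dnajc3, Ero1lb, Hsp90b1 (with 2 copies), Hspa5, Pdia6 and Syvn1. A second element (ATTGG, any 1 base, CCACG) was in Dnajb11 and Herpud1 and in 0.044% of all genes, and TGACGTGG was in Vcp and in 0.714% of all genes. The 3 motifs share the letters CCACG or their complement, and no member held 2 kinds. Because many members are known targets of ATF6 and XBP1, the higher share among members is not a separate result. A match describes the sequence and is not evidence of binding. In the stretches below, written 5′ to 3′ on the gene's own strand, capitals mark the fixed letters of the match. They lie at chr2:34772005-34772063 (plus strand, Hspa5), chr10:75893222-75893280 (plus, Derl3), chr13:12565662-12565720 (plus, Ero1lb), chr14:118937807-118937865 (plus, Dnajc3), chr12:17266471-17266529 (plus, Pdia6), chr11:50325780-50325838 (minus, Canx), chr19:6046512-6046570 (plus, Syvn1) and chr8:94386357-94386407 (plus, Herpud1).
Hspa5: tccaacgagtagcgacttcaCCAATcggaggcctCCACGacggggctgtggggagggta
Derl3: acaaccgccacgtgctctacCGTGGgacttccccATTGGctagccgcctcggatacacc
Ero1lb: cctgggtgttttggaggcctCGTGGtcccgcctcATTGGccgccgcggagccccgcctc
Dnajc3: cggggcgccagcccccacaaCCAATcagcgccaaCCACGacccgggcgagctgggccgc
Pdia6: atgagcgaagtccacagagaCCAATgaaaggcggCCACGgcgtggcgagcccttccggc
Canx: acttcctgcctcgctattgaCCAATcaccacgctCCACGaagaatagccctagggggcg
Syvn1: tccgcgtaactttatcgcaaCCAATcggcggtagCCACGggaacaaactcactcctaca
Herpud1: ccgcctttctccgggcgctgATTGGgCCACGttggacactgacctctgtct

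At 8 h after the first caerulein injection the WT pancreas showed a split among these genes. BiP, IRE1 and the oxidase Ero1l rose strongly, while most other folding and degradation genes fell. Of the 36 members 5 rose and 26 fell, where 28.2% of all 12858 genes tested rose and 22.8% fell (51.0% called in all); the members' median change was −0.98 on the log2 scale and that of all genes 0.05. The groups did not overlap for 30 members, against 56.2% of all genes. In whole tissue, fewer cells of a type and less RNA per cell cannot be told apart. Hspa5 stood at 573, 260 and 294 FPKM in the WT saline libraries and at 817, 1020 and 1410 FPKM at 8 h. Every 8 h library was above every saline library, a difference of 1.58 ± 0.31 (limma adjusted p = 0.000233). Ern1 was at 7.81, 6.18 and 7.32 FPKM in saline and 21.7, 19.3 and 23.7 FPKM at 8 h. The groups were far apart, with a log2 difference of 1.48 ± 0.12 (limma adjusted p = 5.95e-09). Ero1l, which passes electrons from disulfide isomerases to oxygen, went from 5.09, 3.71 and 4.11 FPKM to 17.7, 15.1 and 24.2 FPKM, a log2 difference of 1.90 ± 0.17 (limma adjusted p = 1.42e-08). Pdia5 (1.03 ± 0.17) and the BiP cofactor Dnajb9 (0.47 ± 0.19, limma adjusted p = 0.0448) rose as well.

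Among the chaperones that fell at 8 h in WT was Dnajb11, a cofactor that hands clients to BiP. It was at 231, 171 and 147 FPKM in saline and at 20.8, 25.4 and 30.6 FPKM at 8 h, with no overlap (log2 difference −2.78 ± 0.23, limma adjusted p = 7e-09). Dnajc3, which binds unfolded chains and restrains PERK, went from 127, 95 and 81.9 FPKM to 17.3, 22 and 31.8 FPKM (−2.07 ± 0.24). Sdf2l1 (−2.65 ± 0.33), Hyou1, the exchange factor of BiP (−1.99 ± 0.29), Creld2 (−2.08 ± 0.43), Manf (−1.62 ± 0.26) and Hsp90b1, the ER form of Hsp90 (−1.10 ± 0.40), also fell. In the libraries themselves the ratio of Hspa5 to Hsp90b1, which no scaling between libraries can change, was 1.30 to 2.39 in WT saline and 8.86 to 14.3 in WT at 8 h. This pair and the other ratios below were chosen after their values were seen and carry no test.

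Both lectin chaperones fell at 8 h in WT. Calr was at 338, 157 and 168 FPKM in saline and at 100, 99.5 and 108 FPKM at 8 h, and Canx at 82.5, 83.7 and 62.5 FPKM and then 43.9, 36.9 and 41.9 FPKM. Neither pair of groups overlapped, and the log2 differences were −1.01 ± 0.24 and −0.87 ± 0.17 (limma adjusted p = 0.00136 and 0.00018). Of the disulfide enzymes 2 rose and 5 fell. Ero1lb fell as Ero1l rose, from 163, 193 and 178 FPKM in saline to 23.1, 27.8 and 35.3 FPKM (−2.61 ± 0.35, limma adjusted p = 3.35e-06). The ratio of Ero1lb to Ero1l was therefore 32.0 to 52.0 in the WT saline libraries and 1.31 to 1.84 at 8 h. P4hb went from 1600, 1740 and 1240 FPKM to 628, 811 and 1070 FPKM (−0.89 ± 0.26, limma adjusted p = 0.00705). Pdia2 was at 2910, 4730 and 3860 FPKM and then at 1440, 2200 and 2530 FPKM; it did not pass the test (−0.91 ± 0.71, limma adjusted p = 0.306) although the groups did not overlap. Pdia4 (−1.97 ± 0.32) and Pdia6 (−1.37 ± 0.19) fell too.

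Both prolyl isomerases fell at 8 h in WT. Fkbp2 was at 95, 111 and 81.8 FPKM in saline and 11, 16.4 and 21.9 FPKM at 8 h (log2 difference −2.51 ± 0.29, limma adjusted p = 4.54e-07), and Fkbp11 at 308, 378 and 271 FPKM and then 74, 109 and 159 FPKM (−1.53 ± 0.36). Of the 12 degradation genes 9 fell and none rose. Sel1l (ENSMUSG00000020964) fell furthest of all members, from 420, 363 and 371 FPKM in saline to 29.3, 39.4 and 45.3 FPKM (−3.32 ± 0.34, limma adjusted p = 1.09e-07). Its partner Syvn1, the ubiquitin ligase HRD1, was at 27.9, 21 and 21.3 FPKM and at 22.5, 21.3 and 23.2 FPKM, overlapping groups with a difference of −0.05 ± 0.29. Os9, a lectin that brings glycoproteins to that ligase, went from 84.5, 86.7 and 68.7 FPKM to 17, 22.1 and 28.9 FPKM (−1.80 ± 0.17, limma adjusted p = 3.88e-08), and Derl3, a derlin of the export channel, from 112, 93.3 and 84.2 FPKM to 12.5, 15.8 and 23.4 FPKM (−2.45 ± 0.36). Edem1, a mannosidase-like factor that marks glycoproteins for removal, went from 65.9, 98.8 and 87.8 FPKM to 34.6, 41.8 and 38.9 FPKM (−1.10 ± 0.21). Herpud1, an adaptor of the same ligase, was at 213, 169 and 271 FPKM in saline and 250, 316 and 390 FPKM at 8 h, not past the threshold (0.55 ± 0.27, limma adjusted p = 0.101).

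Of the sensors, Ern1 rose as given above, and Atf6 fell from 12.5, 13.7 and 10.8 FPKM to 7.73, 8.47 and 10.3 FPKM (−0.44 ± 0.13, limma adjusted p = 0.00907), a sign that reversed, as did those of Derl1, Vcp and Selk, when FPKM were made to sum to 1000000. Xbp1 was at 322, 340 and 291 FPKM in saline and 263, 287 and 377 FPKM at 8 h, overlapping groups (−0.05 ± 0.27, limma adjusted p = 0.893); gene-level values do not show how much of its transcript is spliced. The members whose promoters hold the ER stress response element did not move together: Hspa5 rose, Syvn1 did not pass, and the other 8 fell. The 14 acinar markers summed to 61846 to 110490 FPKM at 8 h, and 8 of the 14 markers fell and 1 rose. Of 13 islet markers 8 fell, all 5 endothelial markers fell, and 2 of 12 macrophage markers rose. The part of these cells in the changes was not tested. Summing FPKM to 1000000, which moves the median of all genes to 0.59, gave 7 members higher and 15 lower. There were 4 members higher (Ern1, Ero1l, Hspa5 and Pdia5) and 15 lower under each of the 3 scalings tried, Dnajb11, Sel1l, Ero1lb and Derl3 among the latter.

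**Figure D2:**
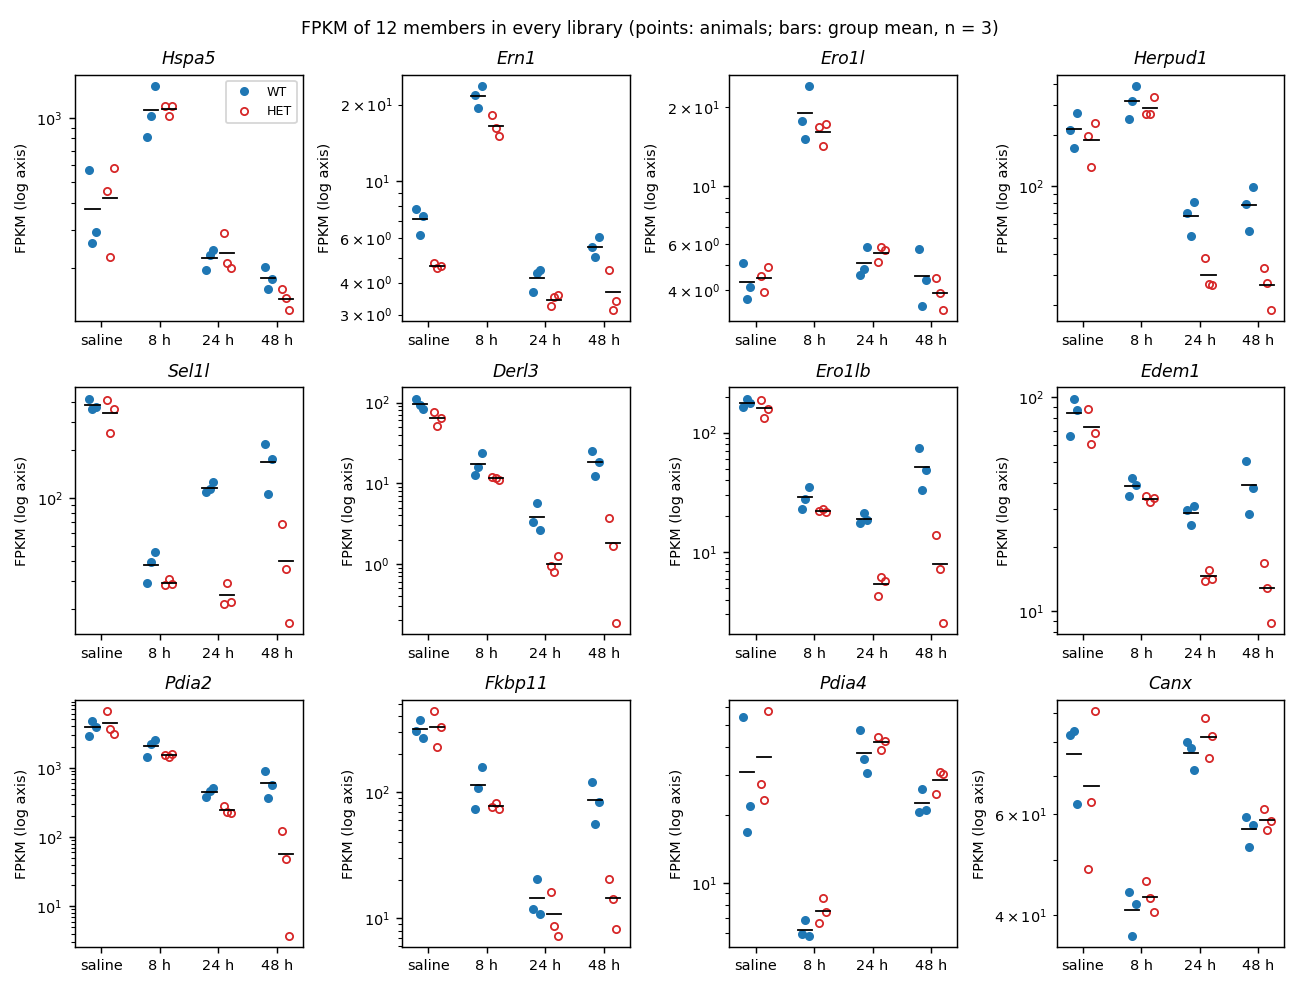
FPKM (log axis) of 12 members in each library by time, WT filled and HET open, with black bars at group means (n = 3). Hspa5, Ern1 and Ero1l peak at 8 h in both genotypes, and Sel1l and Ero1lb of the HET 24 h and 48 h libraries lie below every WT library of the same time.

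At 24 h in WT, in the authors' scaling, BiP, IRE1 and Ero1l no longer stood above saline. The prolyl isomerases and many degradation genes were far below saline. No member was above saline, and 24 were below it, against 20.5% of 12854 genes higher and 18.7% lower (39.2% in all); medians were −1.41 for the members and 0.05 for all genes, and 25 members did not overlap, against 43.9% of all genes. The prolyl isomerase Fkbp11 measured 11.8, 20.6 and 10.8 FPKM, far under every saline library (log2 difference −4.42 ± 0.36, limma adjusted p = 6.93e-08). Derl3 measured 3.28, 5.66 and 2.62 FPKM (−4.37 ± 0.36), Ero1lb 17.4, 21.2 and 18.6 FPKM (−3.16 ± 0.35) and P4hb 250, 294 and 296 FPKM (−2.43 ± 0.26). Os9 measured 16.2, 17.3 and 14.1 FPKM (−2.26 ± 0.17), Dnajc3 20.9, 25 and 25.7 FPKM (−2.02 ± 0.24), Atf6 4.73, 4.79 and 4.76 FPKM (−1.21 ± 0.13) and Pdia2 382, 457 and 508 FPKM (−3.07 ± 0.71).

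The lectin chaperones and several disulfide isomerases did not share in this. Canx at 80.1, 78.3 and 71.7 FPKM and Calr at 222, 194 and 168 FPKM overlapped their saline values (0.02 ± 0.17 and −0.10 ± 0.24). Pdia3, which works with both of them on glycoproteins, Pdia4 and Hsp90b1 differed from saline by 0.48 ± 0.20, 0.43 ± 0.32 and −0.22 ± 0.40, none past the threshold. Xbp1 was at 359, 334 and 677 FPKM, the last value, of replicate 3, alone above every other library of the series (0.45 ± 0.27). Sel1l, at 108, 114 and 125 FPKM, was below every saline library.

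The call count at 24 h depended on how libraries were scaled, and so did the standing of members not above saline in the authors' scaling. Without enzyme and Reg genes in the total, Ero1l was 0.985 above saline on the log2 scale. Pdia3 was 1.43 above, Pdia4 1.36, Canx 0.97, Calr 0.86, Hspa5 0.29 and Ern1 0.16. With FPKM summed to 1000000 these differences were, in the same order, 1.26, 1.66, 1.60, 1.20, 1.08, 0.51 and 0.38. With enzyme and Reg genes left out of the library total, 9 members were higher and 12 lower (median of all genes 0.70), and summed to 1000000, 10 and 10 (0.97); the members' median stayed under that of all genes by 1.20 and 1.26, against 1.46 in the authors' scaling. In all 10 members were lower under all 3 scalings, Derl3, Dnajc3, Edem2, Ero1lb, Fkbp11, Fkbp2, Os9, P4hb, Pdia2 and Sdf2l1; the signs of Dnajb9 and Ern1 turned under both other scalings, and that of Selk with FPKM summed to 1000000. Over the same libraries the 14 acinar markers summed to 37318 to 48918 FPKM (11 of 14 lower than in saline). Of 13 islet markers 12 were lower (summed level 469 to 1165 FPKM, against 2765 to 5271 FPKM in saline). Of 12 fibroblast and stellate markers 10 were higher (547 to 1067 FPKM, against 236 to 342 FPKM). Of 12 macrophage markers 11 were higher (633 to 1095 FPKM, against 93.0 to 231 FPKM). The part of these cells was not tested.

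At 48 h in WT most members were below saline. Pdia5 was higher than in saline (0.50 ± 0.17, limma adjusted p = 0.0362) and 27 members were lower, against 11.8% of 12858 genes higher and 13.5% lower (25.3% in all), at medians of −1.01 and 0.02; 32 members did not overlap, against 38.6% of all genes. Derl3 was at 25.1, 12.3 and 18.4 FPKM (−2.36 ± 0.36, limma adjusted p = 0.00013), Ero1lb at 74.1, 32.8 and 48.3 FPKM (−1.84 ± 0.35), Fkbp11 at 120, 55.9 and 84 FPKM (−1.92 ± 0.36) and Os9 at 29.9, 21.7 and 24.4 FPKM (−1.62 ± 0.17). The groups did not overlap for any of these 4 genes, and WT 48 h replicate 2 was the lowest of its group in each. Hspa5, at 202, 158 and 176 FPKM, had gone below its saline range (−0.98 ± 0.31, limma adjusted p = 0.0239). The 14 acinar markers summed to 40721 to 97955 FPKM (12 of 14 lower than in saline), 10 of 12 macrophage markers were higher (312 to 1064 FPKM) and 8 of 12 fibroblast and stellate markers were higher (777 to 1183 FPKM); their part was not tested. The split was 2 higher and 9 lower without enzyme and Reg genes in the total (median of all genes 0.46) and 4 and 8 with FPKM summed to 1000000 (0.74). Under all 3 scalings 8 were lower, Derl3, Dnajc3, Ero1lb, Fkbp11, Fkbp2, Os9, P4hb and Pdia2, and Pdia5 was higher.

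The step from 8 h to 48 h in WT lies within the later guide. Of the members 8 rose and 11 fell, against 22.5% and 27.4% of 12860 genes (50.0% in all), and 22 did not overlap, against 57.9% of all genes; these shares are near those of all genes. Ern1 (−1.79 ± 0.12, limma adjusted p = 5.84e-10), Ero1l (−1.85 ± 0.17), Hspa5 (−2.56 ± 0.31), Herpud1 (−2.05 ± 0.27) and Dnajb9 (−1.30 ± 0.19) fell. Sel1l (2.07 ± 0.34), Dnajb11 (1.74 ± 0.23), Pdia4 (1.70 ± 0.32), Sdf2l1 (1.45 ± 0.33) and Pdia3 (0.81 ± 0.20) rose. All 10 of these genes kept their call and direction under the 3 scalings, as did the rises of Fkbp2 and Hyou1, although the whole split was 22 to 5 without enzyme and Reg genes in the total (median of all genes 0.46) and 12 to 7 with FPKM summed to 1000000.

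In HET most members were below saline at each time. At 8 h, 5 members rose and 25 fell against saline (30.7% and 24.5% of 12857 genes, 55.2% in all; 30 not overlapping, against 59.4% of all genes), and at 24 h, none rose and 24 fell (23.9% and 19.8% of 12852, 43.8% in all; 26 not overlapping, against 49.2%). At 48 h none rose and 28 fell (24.2% and 20.0% of 12857, 44.2% in all; 29 not overlapping, against 51.3%), and from 8 to 48 h 3 rose and 17 fell (23.4% and 28.6% of 12863, 52.0% in all; 27 not overlapping, against 66.4%). Hspa5 was at 455, 223 and 582 FPKM in HET saline and 1130, 1020 and 1140 FPKM at 8 h (1.49 ± 0.31), and Ern1 at 4.76, 4.55 and 4.65 FPKM and then 18.2, 16.2 and 15.1 FPKM (1.63 ± 0.12, limma adjusted p = 1.39e-09). The largest falls from saline in HET were those of Pdia2 at 48 h (−7.10 ± 0.71, limma adjusted p = 3.87e-07), Derl3 at 24 h (−5.01 ± 0.36, limma adjusted p = 6.83e-09) and Fkbp11 at 24 h (−4.85 ± 0.36). The members' median in HET was −1.12, −1.57 and −1.75 at 8, 24 and 48 h against saline and −0.33 from 8 to 48 h, where it was 0.14 in WT. The 14 acinar markers summed to 297800 to 577130 FPKM in HET saline, 63014 to 70198 FPKM at 8 h, 14632 to 16761 FPKM at 24 h and 999 to 16600 FPKM at 48 h. Macrophage markers summed to 298 to 634 FPKM in HET saline and 992 to 1765 FPKM at 48 h (11 of 12 higher). Fibroblast and stellate markers summed to 415 to 830 FPKM in HET saline and 1070 to 1619 FPKM at 48 h (8 of 12 higher, 1 lower). Adipocyte markers summed to 263 to 608 FPKM in HET saline and 17.3 to 105 FPKM at 48 h (7 of 8 lower). All 5 endothelial markers were lower at 48 h, and of 7 duct markers 4 were higher and 1 lower. The part of these cells was not tested. With FPKM summed to 1000000 the splits were 9 and 15 at 8 h, 17 and 12 at 24 h, 15 and 12 at 48 h and 18 and 11 from 8 to 48 h, and with enzyme and Reg genes left out of the total they were 4 and 20, 12 and 17, 7 and 19, and 17 and 9; the median of all genes moved to between 0.08 and 1.60. Under all 3 scalings 12 members were lower than saline at 24 h and 12 at 48 h, Derl3, Ero1lb, Fkbp11, Pdia2, P4hb and Sel1l in both.

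**Figure D3:**
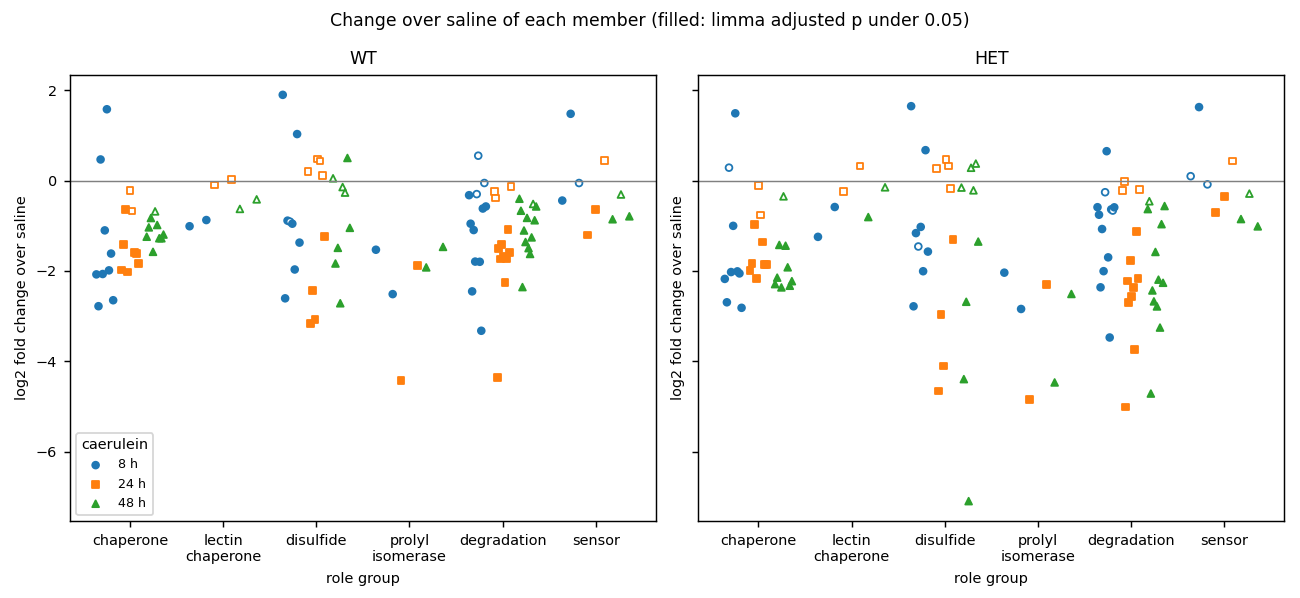
Log2 difference from saline of each member by role group at 8, 24 and 48 h, WT on the left and HET on the right; filled symbols passed the limma threshold. The rises at 8 h are few and lie in the chaperone, disulfide, degradation and sensor groups, and the lowest symbol is Pdia2 in HET at 48 h (−7.10).

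Without caerulein, only the sensors Atf6 and Ern1 passed between genotypes, and of the 3 scalings only in that of the authors. Atf6 and Ern1 were lower in HET saline than in WT saline, and 34 members did not pass, against 2.36% of 12856 genes called (1.15% higher, 1.21% lower); the medians were −0.03 for members and 0.00 for all genes. Atf6, a membrane-bound transcription factor released when unfolded proteins gather, was at 12.5, 13.7 and 10.8 FPKM in WT and 6.84, 7.42 and 9.44 FPKM in HET. The genotypes did not overlap (log2 difference −0.59 ± 0.13, limma adjusted p = 0.0271). Ern1 was at 7.81, 6.18 and 7.32 FPKM in WT and 4.76, 4.55 and 4.65 FPKM in HET, again without overlap (−0.51 ± 0.12, limma adjusted p = 0.0328). Groups did not overlap for 4 members, where 17.4% of all genes did not. Each call ended in 4 of the 6 fits without 1 library, and neither passed under the other scalings or with the spread taken from the 2 compared groups (limma adjusted p = 0.337 for both). In the same libraries 2 of 8 adipocyte markers (summed level 43.3 to 117 FPKM in WT, 263 to 608 FPKM in HET) were higher in HET. So were 2 of 12 fibroblast and stellate markers (236 to 342 FPKM in WT, 415 to 830 FPKM in HET) and 2 of 12 macrophage markers, and 2 of 13 islet markers were lower. The part of these cells was not tested.

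At 8 h no member passed between genotypes, and 1 had an unadjusted p under 0.05; of 12861 genes 0.218% were called (0.171% higher, 0.0467% lower). The smallest p values were those of Ern1 (21.7, 19.3 and 23.7 FPKM in WT, 18.2, 16.2 and 15.1 FPKM in HET; −0.37 ± 0.12, limma adjusted p = 0.573) and of Edem3 (−0.34 ± 0.17, limma adjusted p = 0.905). Groups did not overlap for 5 members, against 14.9% of all genes. The count was 0 under every alternative run as well.

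At 24 h, in the authors' scaling, 6 of the 7 members called between genotypes were degradation genes. The role groups were chosen with earlier results of these data known. Only Sel1l and the disulfide enzyme Ero1lb were called under all 3 scalings, and none of 27 degradation genes outside the 36 passed. Of the 12 degradation members 6 were lower in HET, as was 1 of the 8 disulfide enzymes, and none of the 9 chaperones, 2 lectin chaperones, 2 prolyl isomerases or 3 sensors and regulators passed. That is 7 members lower and none higher, where 3.0% of 12858 genes were lower and 3.5% higher (6.5% in all); the members' median was −0.19 and that of all genes 0.00. Sel1l was at 108, 114 and 125 FPKM in WT and 21.6, 29.2 and 22.2 FPKM in HET, groups far from overlapping (−2.21 ± 0.34, limma adjusted p = 0.000984). Ero1lb was at 17.4, 21.2 and 18.6 FPKM in WT and 4.25, 6.14 and 5.77 FPKM in HET (−1.66 ± 0.35, limma adjusted p = 0.00813). Its ratio to Ero1l was 3.18 to 4.39 in the WT libraries and 0.825 to 1.05 in the HET libraries.

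The 5 other degradation genes lower in HET at 24 h were smaller in effect. Edem1 was at 29.9, 25.2 and 31.1 FPKM in WT and 13.9, 15.6 and 14.2 FPKM in HET (−0.93 ± 0.21, limma adjusted p = 0.0127), and its relatives Edem2 (−1.08 ± 0.27, limma adjusted p = 0.0215) and Edem3 (−0.74 ± 0.17, limma adjusted p = 0.0135) were lower too. Herpud1 was at 69.9, 50.9 and 80.7 FPKM in WT and 37.7, 26.7 and 26.3 FPKM in HET (−1.12 ± 0.27, limma adjusted p = 0.0190). Derl3 was at 3.28, 5.66 and 2.62 FPKM in WT and 0.947, 0.798 and 1.26 FPKM in HET (−1.24 ± 0.36, limma adjusted p = 0.0439). The genotypes did not overlap for Edem1, Herpud1 or Derl3; over all members 15 did not overlap, against 24.8% of all genes. Derl1 and Derl2, the other derlins, Syvn1 and Vcp did not pass (0.07 ± 0.13, 0.20 ± 0.23, −0.32 ± 0.29 and −0.10 ± 0.13).

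Sel1l and Ero1lb kept their calls without any one library and under all 3 scalings, and the other 5 lost theirs under both other scalings; the count was 3 with the spread taken from the compared groups and 3 to 6 with 1 library left out. Summing FPKM to 1000000, which moves the median of all genes to 0.55, gave 7 members higher and 2 lower. The 14 acinar markers summed to 37318 to 48918 FPKM in WT at 24 h and 14632 to 16761 FPKM in HET (9.56 to 11.9% and 5.53 to 6.25% of all FPKM), with 1 of 20 acinar markers tested past the threshold; their part was not tested.

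**Figure D4:**
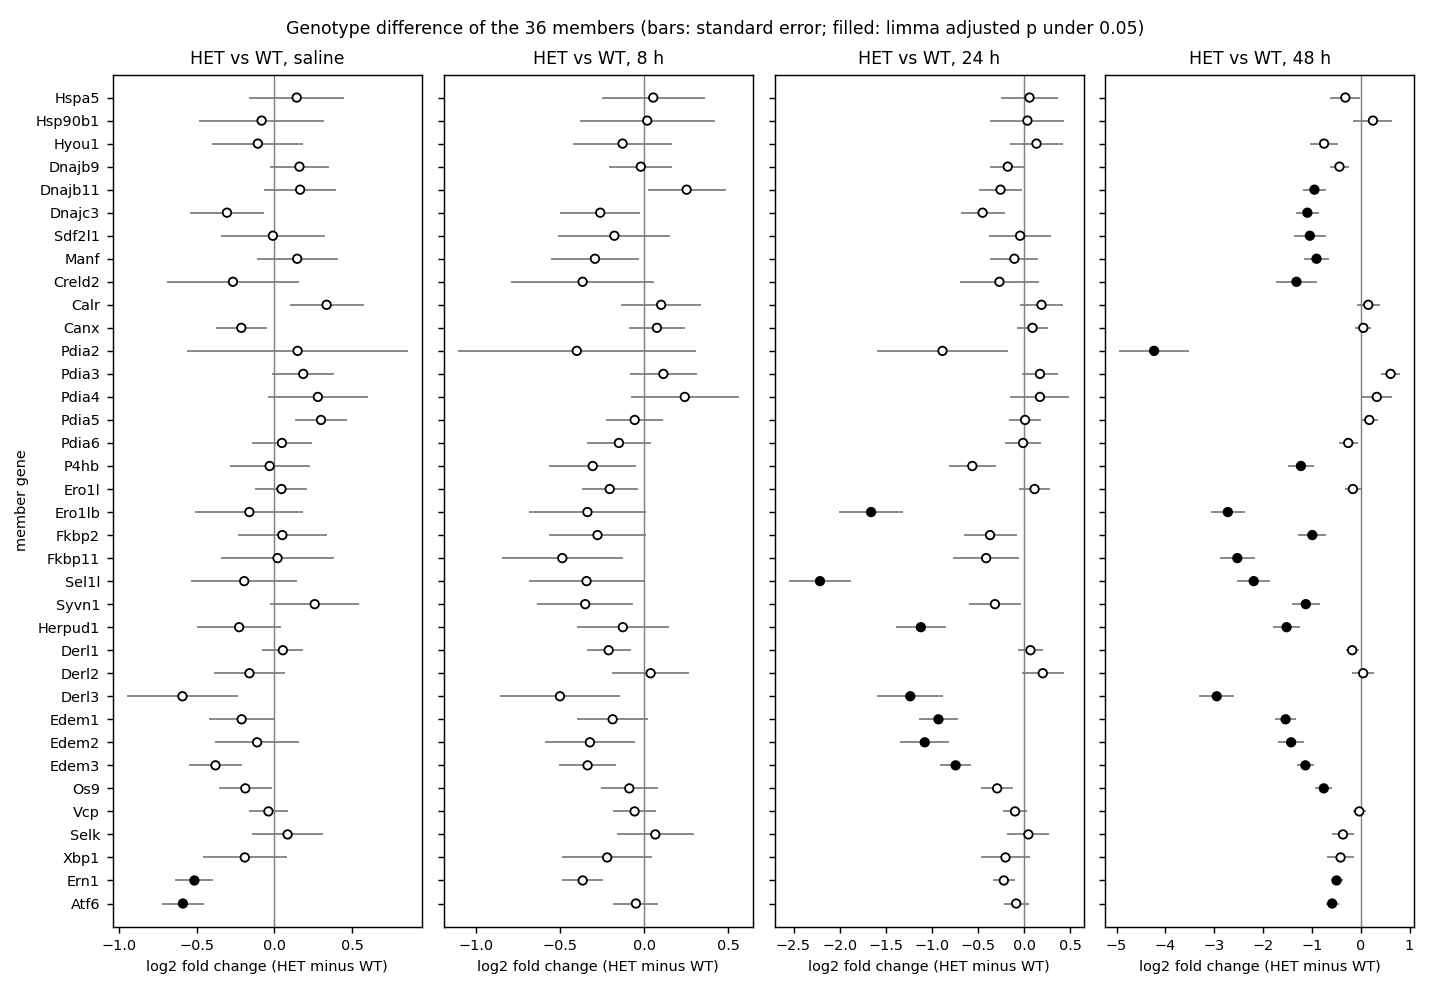
Log2 difference between HET and WT of each member in saline and at 8, 24 and 48 h (points, with SE bars; the horizontal scale differs between panels); filled points passed the limma threshold. Filled points number 2, 0, 7 and 20, all on the negative side. The SE bars rest on the spread over all 8 groups, not on that of the groups compared.

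At 48 h members lower in HET were found in most role groups. In all 20 members were lower in HET and none higher, against 6.37% of 12867 genes lower and 5.85% higher (12.2% in all); the members' median was −0.75 and that of all genes 0.03. By role, 5 of 9 chaperones, 3 of 8 disulfide enzymes, both prolyl isomerases, 8 of 12 degradation genes and 2 of 3 sensors and regulators were lower, and neither lectin chaperone passed. Derl3 was at 25.1, 12.3 and 18.4 FPKM in WT and 3.66, 1.65 and 0.187 FPKM in HET (−2.95 ± 0.36, limma adjusted p = 6.64e-05). Ero1lb was at 74.1, 32.8 and 48.3 FPKM in WT and 14, 7.18 and 2.56 FPKM in HET (−2.72 ± 0.35, limma adjusted p = 0.000108). Every HET library was under every WT library for both genes, with HET replicate 3 lowest.

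Among the disulfide enzymes Pdia2 showed the largest difference of any member. It was at 896, 372 and 559 FPKM in WT and at 121, 47.6 and 3.77 FPKM in HET (−4.23 ± 0.71, limma adjusted p = 0.000907). P4hb, at 726, 391 and 547 FPKM in WT and 269, 247 and 182 FPKM in HET, was lower by less (−1.22 ± 0.26, limma adjusted p = 0.00475), so that the ratio of Pdia2 to P4hb was 0.951 to 1.23 in WT and 0.450, 0.193 and 0.0207 in HET replicates 1 to 3. In contrast Pdia3 was at 89, 107 and 89 FPKM in WT and 125, 158 and 155 FPKM in HET, groups that did not overlap with a value just outside the threshold (0.61 ± 0.20, limma adjusted p = 0.0514). Pdia4 (0.33 ± 0.32), Pdia5 (0.18 ± 0.17), Pdia6 (−0.26 ± 0.19) and Ero1l (−0.16 ± 0.17) did not pass. The prolyl isomerase Fkbp11 was at 120, 55.9 and 84 FPKM in WT and 20.6, 14.3 and 8.26 FPKM in HET (−2.53 ± 0.36, limma adjusted p = 0.000263), and Fkbp2 at 46.4, 25.3 and 32.7 FPKM in WT and 18.6, 18.5 and 13 FPKM in HET (−0.99 ± 0.29, limma adjusted p = 0.0293).

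Among the degradation genes Sel1l was at 219, 106 and 176 FPKM in WT and 68, 35.5 and 16.4 FPKM in HET (−2.19 ± 0.34, limma adjusted p = 0.000455), and Edem1 at 50.7, 28.6 and 37.9 FPKM in WT and 16.8, 12.9 and 8.83 FPKM in HET (−1.54 ± 0.21, limma adjusted p = 0.000219). Neither overlapped. Herpud1 (−1.52 ± 0.27), Edem2 (−1.43 ± 0.27), Edem3 (−1.13 ± 0.17), Syvn1 (−1.12 ± 0.29) and Os9 (−0.76 ± 0.17) were lower too, whereas Derl1, Derl2, Vcp and Selk, which encodes a selenoprotein bound to the derlins, did not pass (−0.17 ± 0.13, 0.05 ± 0.23, −0.03 ± 0.13 and −0.36 ± 0.23). Vcp, which serves many pathways outside the ER, was at 19.7, 16.2 and 18.9 FPKM in WT and 17.8, 18.2 and 17.5 FPKM in HET.

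Of the 9 chaperones and cofactors 5 were lower at 48 h in HET. Dnajc3 was at 42.4, 26 and 31.7 FPKM in WT and 19.4, 14.5 and 11.5 FPKM in HET (−1.09 ± 0.24, limma adjusted p = 0.00613), Dnajb11 at 104, 66.7 and 95.3 FPKM and 51.3, 49.3 and 35.3 FPKM (−0.95 ± 0.23), and Sdf2l1, Creld2 and Manf passed as well (−1.04 ± 0.33, −1.32 ± 0.43 and −0.90 ± 0.26). The cofactor Dnajb9 and the exchange factor Hyou1 did not pass (−0.43 ± 0.19 and −0.75 ± 0.29, limma adjusted p = 0.141 and 0.101). Hspa5 at 202, 158 and 176 FPKM in WT and 159, 144 and 127 FPKM in HET overlapped by 1 library (−0.31 ± 0.31, limma adjusted p = 0.564), and Hsp90b1, Calr and Canx differed by 0.25 ± 0.40, 0.15 ± 0.24 and 0.05 ± 0.17. The sensors Ern1 (5.54, 5.04 and 6.02 FPKM in WT, 4.47, 3.13 and 3.39 FPKM in HET; −0.49 ± 0.12) and Atf6 (6.92, 5.45 and 6.72 FPKM and 4.58, 3.4 and 3.77 FPKM; −0.58 ± 0.13) were lower in HET, but like Manf and Os9 they turned sign with FPKM summed to 1000000. Xbp1 was at 225, 149 and 182 FPKM in WT and 184, 160 and 87.3 FPKM in HET, overlapping groups (−0.41 ± 0.27, limma adjusted p = 0.353). Over all members 25 did not overlap, against 34.2% of all genes.

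The 48 h count moved with the processing. With the spread taken from the 6 compared libraries alone no member passed (0 of 36; the smallest adjusted p of the 20 was 0.0737), and with 1 library left out 10 to 21 did, 10 without WT replicate 1 and 11 without HET replicate 3. It was 1 higher and 10 lower without enzyme and Reg genes in the total (median of all genes 0.40) and 13 higher and 7 lower with FPKM summed to 1000000 (0.86), while the members' median stayed under that of all genes by 0.78, 0.69 and 0.70 in the 3 scalings. In all 3 scalings 7 were lower, Derl3, Edem1, Edem2, Ero1lb, Fkbp11, Pdia2 and Sel1l, and these kept their call without any one library. The 14 acinar markers summed to 97955, 40721 and 60713 FPKM in WT replicates 1 to 3 at 48 h and to 16600, 8412 and 999 FPKM in HET replicates 1 to 3 (5.95, 3.08 and 0.460% of all FPKM), and 18 of 21 acinar markers tested were lower in HET, 7 of 12 macrophage markers higher and 3 of 12 fibroblast and stellate markers higher. The order of the HET libraries by these markers is that of Pdia2, Ero1lb, Fkbp11, Sel1l and Derl3; the part of the acinar content in the difference was not tested.

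**Figure D5:**
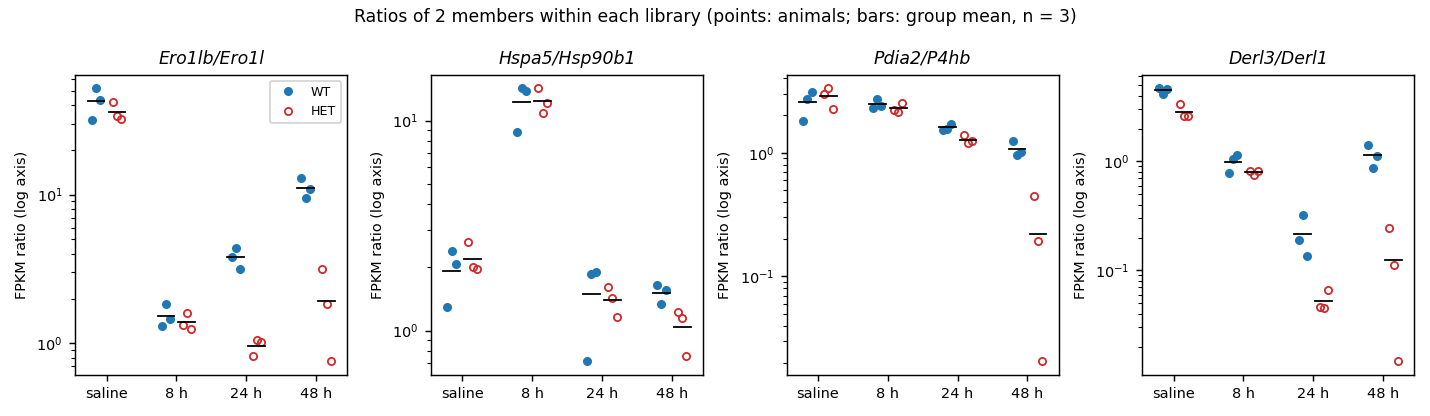
Ratio of FPKM of 2 members within each library (log axis), WT filled and HET open, black bars at group means (n = 3). Hspa5 to Hsp90b1 peaks at 8 h in both genotypes (8.86 to 14.3 in WT, 10.9 to 14.3 in HET), and Ero1lb to Ero1l and Pdia2 to P4hb are lower in every HET than in every WT library at 24 h and 48 h.

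Whether the genotype difference itself changed with time was tested within each kit guide, except that the guide of WT saline replicate 3 is not known. From saline to 24 h, Sel1l was the 1 member past the threshold (difference of differences −2.02 ± 0.48, limma adjusted p = 0.0320), where 2.31% of 12849 genes were called (1.07% higher, 1.24% lower). From 8 h to 48 h, 3 members passed, Derl3 (−2.45 ± 0.51, limma adjusted p = 0.0313), Ero1lb (−2.38 ± 0.49, limma adjusted p = 0.0313) and Edem1 (−1.35 ± 0.30, limma adjusted p = 0.0424), where 0.723% of 12860 genes were called (0.156% higher, 0.568% lower). Ero1lb rose from 23.1, 27.8 and 35.3 FPKM at 8 h to 74.1, 32.8 and 48.3 FPKM at 48 h in WT by a margin not past the threshold (0.77 ± 0.35), and fell in HET (−1.61 ± 0.35, limma adjusted p = 0.000657). The call of Sel1l ended in 8 of 12 fits without 1 library, among them the fit without WT saline replicate 3. Those of Ero1lb and Derl3 ended in 8 of 12 and that of Edem1 in 10 of 12, and none of the 4 passed with enzyme and Reg genes left out of the total. For Atf6 and Ern1 the saline difference did not change past the threshold by 24 h (0.50 ± 0.19 and 0.29 ± 0.17, limma adjusted p = 0.161 and 0.398). HET minus WT was −0.59 and −0.51 in saline and −0.09 and −0.22 at 24 h, where neither gene passed.

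Genes of the same pathways outside the 36 are read at 8 h in WT against the shares of all genes, 28.2% higher and 22.8% lower. Calls of these other genes, here and below, are given in the authors' scaling only. Of 12 subunits of the oligosaccharyltransferase, which attaches glycans to proteins entering the ER, none rose and 11 fell in WT at 8 h, led by Dad1 (−1.93 ± 0.18, limma adjusted p = 3.14e-08), Ostc (−1.81 ± 0.19) and Magt1 (−1.65 ± 0.17). At 24 h 8 were below saline and 1 above, against 18.7% and 20.5% of all genes. At 48 h 9 were below and 1 above, against 13.5% and 11.8%. Of 29 further folding and glycoprotein control genes 1 rose and 18 fell at 8 h, with the cyclophilin Ppib at −2.19 ± 0.20 and the cargo receptor Lman1 at −1.89 ± 0.18. Of the 27 further degradation genes 12 were higher and 7 lower at 8 h at a median of 0.49, the lower share being near that of all genes; Rnf5 (−2.83 ± 0.20, limma adjusted p = 5.37e-10) and Erlec1 (−2.36 ± 0.20) fell. Of 16 further genes of the unfolded protein response 9 rose and 3 fell at 8 h; Atf3, a stress-induced transcription factor, rose by 6.96 ± 0.24 (limma adjusted p = 2.68e-14), Eif2s1 by 1.41 ± 0.13, and Creb3l1, a membrane-bound transcription factor of secretory cells, fell (−2.81 ± 0.17).

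Between genotypes these other genes passed mainly at 48 h, when 12.2% of all genes were called. In saline Fkbp7 (1.11 ± 0.21, limma adjusted p = 0.00896), Gpx8 (0.82 ± 0.20) and Tusc3 (0.57 ± 0.12) were higher in HET, and at 8 h none passed. At 24 h Prkcsh, the beta subunit of glucosidase II, was higher (0.56 ± 0.14, limma adjusted p = 0.0215), and none of the 27 other degradation genes passed. At 48 h 7 of the 29 further folding genes were lower and 2 higher, with Mcfd2 (−1.06 ± 0.20, limma adjusted p = 0.00191), Txndc11 (−1.04 ± 0.20) and Ppib (−1.02 ± 0.20) lowest in adjusted p. Of the 27 further degradation genes 2 were lower, Svip (−0.94 ± 0.20) and Rnf5 (−0.66 ± 0.20), and Erlin2 was higher (0.35 ± 0.10). Of the other genes of the unfolded protein response Ppp1r15b was lower (−0.50 ± 0.12), and of the oligosaccharyltransferase Magt1 was lower and Tusc3 higher (−0.84 ± 0.17 and 0.43 ± 0.12).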

How the data were processed

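Expression was measured in 24 libraries of whole pancreas, 3 animals in each of 8 groups. The authors deposited 1 normalized value per Ensembl gene and library; the file gives no unit, and the values are taken as FPKM because the submitters' processing notes name Cuffnorm. Those notes also name CASAVA 1.8, Bowtie, Cufflinks 2.0.2 and build mm9, without their roles or order. The number of fragments, whether counting used strand, and the scaling between libraries are not stated in the labels or notes; the promoter coordinates printed are of the RefSeq table, build GRCm38.p6, and no mm9 coordinates are given. Per the labels' protocols, RNA integrity numbers were 6.6 to 9.2.

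Genes that reached 1 FPKM in 3 or more libraries were tested on log2(FPKM + 1) with limma 3.58.1 (R 4.3.3; trend and robust moderation), fitted to all 8 group means at once (leaving 16 residual degrees of freedom), 14 two-sided comparisons and Benjamini-Hochberg adjustment over all genes of each. Values listed at 0 in a whole group while every library of another group was at 100 FPKM or more were treated as missing (22 genes, 68 combinations of gene and group, no member). The fit was also run on simulated data, in which each gene had the same spread in all groups and only HET saline was changed. That run cannot show how spreads that differ between groups act on the calls. Replicates are different animals per the series design, and the labels give no pairing. The members, their role groups and the other gene lists were chosen with earlier results of these data known. All 36 members are accounted for; values with SE and adjusted p are given for up to 10 called members of a comparison by smallest adjusted p (the 2 smallest p where fewer than 2 passed), and values in every library for Hspa5, Xbp1 and, per role group, the 2 members with the smallest adjusted p in the genotype and in the WT time comparisons. Other members were named with values after these were seen. Alternatives were a pseudocount of 0.1, no filter, library totals that leave out enzyme and Reg genes, FPKM summed to 1000000, the spread of the compared groups only, zeros kept, and each library left out. Exons of Derl2, Manf, Syvn1, Hsp90b1, Pdia3, Pdia6 and Vcp overlap those of other genes in the table, the highest of which reached 15.4 FPKM. Tables and plots used Python 3.11.15, pandas 2.3.3, numpy 2.4.6 and matplotlib 3.10.9.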

Additional observations from a re-analysis of the deposited data

Results flagged for a closer look

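The difference between genotypes changed with time past the threshold for 4 members, by the test of the difference itself. That was 1 member from saline to 24 h, where 2.31% of all genes were called, and 3 from 8 h to 48 h, where 0.723% were. Each of the 4 calls ended in 8 or more of the fits without 1 library. None of the 4 passed with enzyme and Reg genes left out of the total. For Sel1l, HET minus WT at 24 h was below that in saline by −2.02 on the log2 scale (limma adjusted p = 0.0320). For Derl3, Ero1lb and Edem1, HET minus WT at 48 h was below that at 8 h by −2.45, −2.38 and −1.35 (limma adjusted p = 0.0313, 0.0313 and 0.0424). Groups of 3 libraries were not tested for single outlying animals.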

How the results depend on the processing

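Counts of members called moved by more than 1.5 times as follows. In saline the genotype count of 2 was 0 with enzyme and Reg genes left out of the total, 0 with FPKM summed to 1000000 and 0 with the spread taken from the compared groups. At 24 h the 7 became 2 without enzyme and Reg genes and 3 using the compared groups alone, and at 48 h the 20 became 11 and 0. For WT at 48 h against saline the 28 became 11 and 12 under the other scalings. For the change of the genotype difference by 24 h the 1 became 0 without the filter on low values, 0 with those genes left out of the total, and 2 using the compared groups alone; from 8 to 48 h the 3 became 1 with a pseudocount of 0.1, 0 without enzyme and Reg genes, 5 with FPKM summed to 1000000 and 0 with the compared groups alone. The other counts stayed within 1.5 times, and keeping the zeros of whole groups moved none past that. Apart from fewer samples in the compared-groups fits, the causes were not tested.

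With 1 library left out the genotype counts ranged over 0 to 1 (saline), 0 to 0 (8 h), 3 to 6 (24 h) and 10 to 21 (48 h). For WT against saline they were 26 to 30, 24 to 25 and 18 to 27 at 8, 24 and 48 h and 14 to 19 from 8 to 48 h; for HET they were 27 to 30, 23 to 26, 28 to 29 and 17 to 19. The changes of the genotype difference ranged from 0 to 1 by 24 h and from 0 to 9 by 48 h (9 without WT 48 h replicate 2). Among 103 named values that passed, 92 stayed past the threshold whichever library was left out, 71 under every other alternative and 71 under both. No paired analysis was possible because the labels give no replicate numbers that tie animals together. Absolute depth is not known, so no counting error can be given. The spacing of the lowest values gave a relative estimate only. With HET 48 h replicate 3 set to 1, fragments per FPKM were 0.0638 to 0.137 in the saline libraries and 0.388 to 1 in HET 48 h. The bearing of this on the comparisons with saline was not tested.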
